A study of Callithrix jacchus with 3 samples.

Results

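Germ cell, piRNA and meiosis genes were examined in RNA sequencing libraries of marmoset cells labelled as extended pluripotent stem cells. The 52 symbols chosen cover early germ cell genes, the piRNA pathway, meiosis, and oocyte and late germ cell genes. Of these, 47 mapped to an Ensembl marmoset gene ID among the 30811 genes of the files, and 5 did not: NANOS1, DAZL, PLD6, SYCP3 and SOHLH1. The mapping uses symbols and no measured value, but the symbols were chosen with earlier results of these data known. Of the 47 genes, 6 of 8 listed were early germ cell genes, 16 of 17 piRNA genes, 18 of 19 meiosis genes and 7 of 8 oocyte and late germ cell genes.

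The 3 libraries belong to 1 group of common marmoset (Callithrix jacchus) cells. Per the study's title they came from attempts to derive extended pluripotent stem cells, which are described elsewhere as contributing to embryonic and extraembryonic tissues, from marmoset embryonic stem cells, and the submitters' design text calls them EPSC-like. The sources used here give no genotype, sex, culture medium, passage or treatment, and no parental or control cells were analysed here. The sample titles differ only in the replicate number, so the libraries may come from 1 line, and whether they are separate cultures is not stated. P-values against a fixed level therefore cover only how these libraries vary, and that variation may be technical. P-values between 2 libraries cover counting error only.

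Germ cells are set aside early in the embryo, and in primates this step depends on transcription factors such as TFAP2C and PRDM1, with NANOS3 and DND1 protecting the new germ cells. PIWI proteins carry piRNAs, small RNAs that silence transposons in the germline, and Tudor domain proteins hold them in granules near mitochondria. In meiosis, SPO11 cuts DNA, DMC1 repairs the cuts on the homologous chromosome, and the synaptonemal complex and meiotic cohesins hold the homologs together. Many of these genes are silent in somatic cells, and pluripotent cells are known to keep some of them repressed through DNA methylation and a variant Polycomb complex.

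Total counts per library ranged from 40593244 to 55224475, and 0 counts allowed a level of up to 0.0736 CPM (counts per 1000000 counts, after TMM scaling) in the shallowest library, taken as 3 counts. Such limits and the intervals below cover counting error only. Replicate 3 stood apart: the SD of the log2 ratio over 13701 genes was 0.161 between replicates 1 and 2, and 0.558 and 0.562 between replicate 3 and each of them. Each result below is therefore given by library, and every call at 1 CPM that was lost or gained when 1 library was left out is named. HORMAD1 and FIGLA have no value without replicate 2, which holds all their counts. The 7 core pluripotency markers in the files were all above 1 CPM, with a summed level of 5061 to 5241 CPM. Of them, 4 (POU5F1, NANOG, DNMT3B and UTF1) were higher in replicate 3 than in both others by less than 1.5-fold, and 2 (LIN28A and SALL4) were lower by at least 1.5-fold. Among genes with a symbol 20.9% were higher by any factor, and 12.6% were lower by at least 1.5-fold. Fewer cells of a type and less RNA per cell cannot be told apart in such bulk samples.

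Each gene was set against 1 CPM, an arbitrary level, with the edgeR quasi-likelihood F statistic and Benjamini-Hochberg adjustment over all 23432 genes with counts. Of the 46 genes of the set with at least 1 count, 28 stood above 1 CPM and 13 below, while 5 could not be distinguished from that level, and ZP2 had no counts in any library. Among all genes tested 56% were above, 37.8% below and 6.2% not distinguished. Among the 12174 of them with a symbol, as every gene of the set has, 78.3% were above, 16.1% below and 5.62% not distinguished. The files give no gene lengths, so a level in CPM is not a level per length and the order of genes by CPM is not an order of transcript numbers. Median log2 CPM was 1.18, 1.39 and 1.15 over the 47 genes in replicates 1, 2 and 3, beside 4.16, 4.17 and 3.98 over genes with a symbol. All groups held both genes above and genes below 1 CPM.

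**Figure D1:**
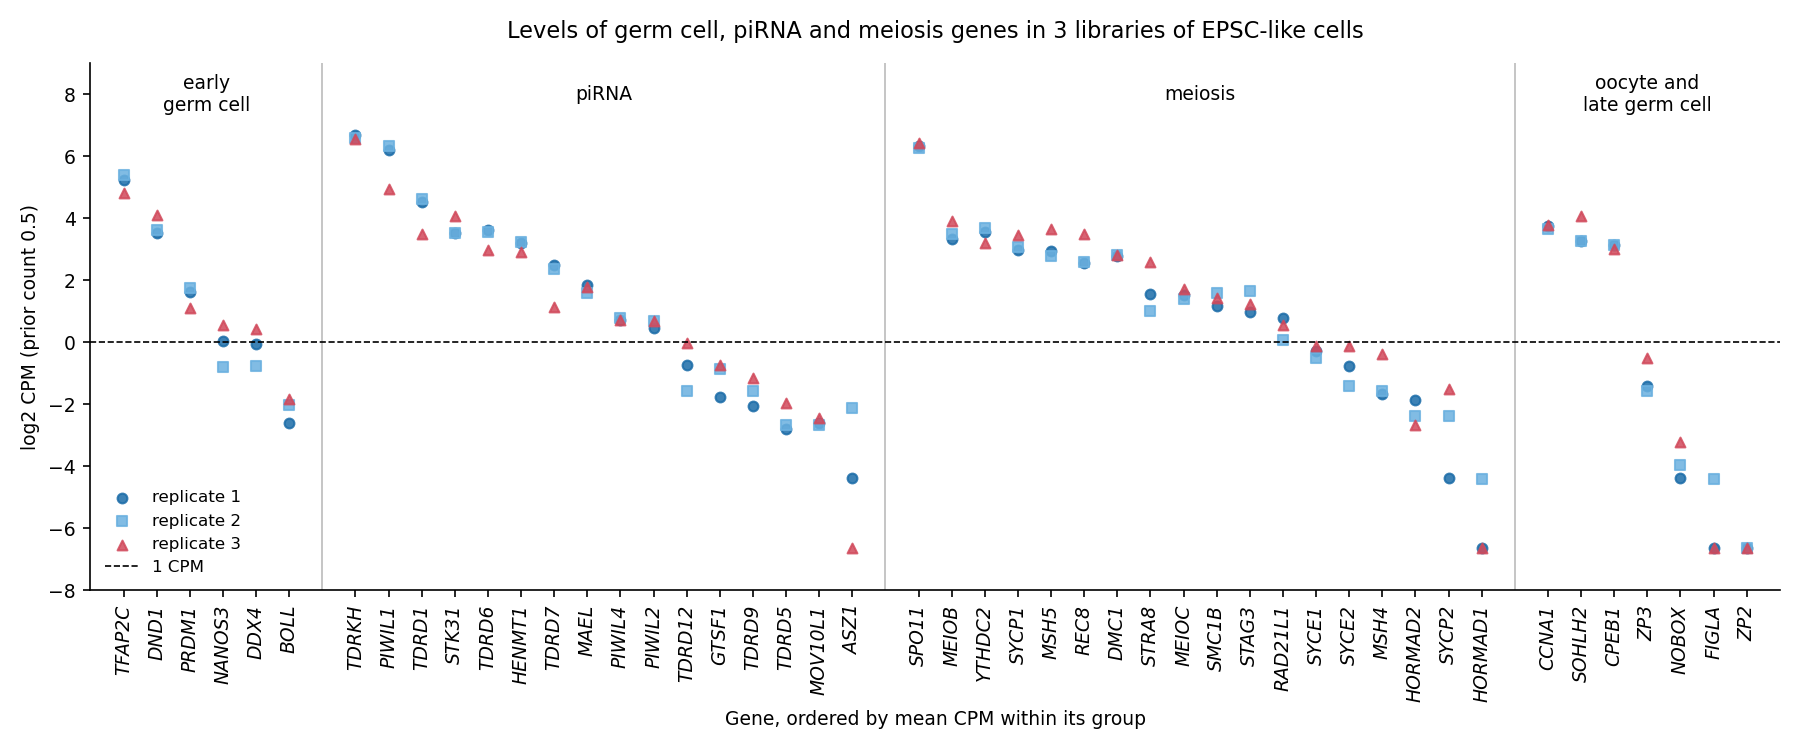
Log2 CPM with a prior count of 0.5 (y axis) of the 47 genes (x axis) in each of 3 libraries, by group, with the dashed line at 1 CPM. Points at the floor of the plot are genes with 0 counts in that library, such as ZP2. TFAP2C, TDRKH, PIWIL1 and SPO11 lie far above the line in every library, and replicate 3 (triangles) lies apart for PIWIL1, TDRD1 and TDRD7.

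Of the early germ cell genes, 3 of 6 were above 1 CPM, 1 was below and 2 were not distinguished from it. TFAP2C (ENSCJAG00000011343), a transcription factor of germ cell specification that is also made in trophoblast and pluripotent cells, stood at 37.7, 42.1 and 28.0 CPM in replicates 1, 2 and 3. Its fitted log2 level was 5.17 with a standard error of 0.07 (adjusted p = 1.33e-10, edgeR quasi-likelihood). PRDM1 (ENSCJAG00000006332), a repressor of somatic genes in nascent germ cells, stood at 3.08, 3.36 and 2.16 CPM (adjusted p = 6.05e-05). DND1 (ENSCJAG00000016345), an RNA-binding protein needed for germ cell survival, stood at 11.5, 12.2 and 17.3 CPM (adjusted p = 8.13e-09). TFAP2C and PRDM1 were lowest in replicate 3, and DND1 was highest there. The gene WDR55 overlaps DND1 in RefSeq and stood at 23.3, 21.9 and 33.4 CPM, also highest in replicate 3. Only whole gene spans were compared, and the strand setting is not known. Reads from a stretch that both genes share may therefore not be told apart.

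The remaining genes of that group lay near or under the level. NANOS3 (ENSCJAG00000004388), which protects migrating germ cells from death, had 53, 31 and 60 counts, or 1.01, 0.564 and 1.47 CPM. DDX4 (ENSCJAG00000001951), the RNA helicase VASA and a classical marker of germ cells in the gonad, had 50, 32 and 54 counts, or 0.956, 0.582 and 1.32 CPM. Neither was distinguished from 1 CPM (adjusted p = 0.969 and 0.787, edgeR quasi-likelihood), and for both the order of the libraries was the same, with replicate 2 lowest and replicate 3 highest. BOLL, an RNA-binding protein of the DAZ family that acts in meiosis, had 8, 13 and 11 counts and was below the level at 0.220 ± 0.0602 CPM (SD, n = 3). No value can be given for its relative DAZL.

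Further genes used to follow germ cell specification were measured with a list of 27, of which 21 matched. In that list 16 were above 1 CPM, 4 below and 1 not distinguished. It shares POU5F1, LIN28A and other genes with the pluripotency markers and TFAP2A with the trophoblast markers. CXCR4 and SOX17 are also endoderm markers here, and TBXT is a mesoderm marker, so counts in these lists are not separate. The largest mean CPM belonged to POU5F1, EPCAM and LIN28A, pluripotency genes that germ cells share. POU5F1, which encodes OCT4, stood at 974, 972 and 1185 CPM, EPCAM at 804, 800 and 1032 CPM and LIN28A at 674, 725 and 350 CPM. The germ cell and naive pluripotency factor PRDM14 stood at 126, 133 and 109 CPM. Among the genes below 1 CPM, NANOS2 had 2, 0 and 2 counts, MAGEA4 0, 2 and 0, and ZBTB16 34, 32 and 8. SOX17, a regulator of primate germ cell fate, was among the 6 without a match.

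Of the piRNA genes, 10 of 16 were above 1 CPM, 5 below and 1 not distinguished. All 3 PIWI genes in the list were above it, and of them PIWIL1 alone differed between libraries. PIWIL1 (ENSCJAG00000010879), which acts with piRNAs in primate oocytes and in meiotic and later male germ cells, had 3834, 4432 and 1268 counts, or 73.3, 80.6 and 31.1 CPM. The fitted log2 level was 5.95 with a standard error of 0.11 (adjusted p = 1.16e-09, edgeR quasi-likelihood). PIWIL2, which acts in the fetal germline, stood at 1.36, 1.58 and 1.59 CPM, and PIWIL4, the nuclear PIWI protein that guides transposon methylation in mice, at 1.62, 1.73 and 1.62 CPM. Their adjusted p-values were 0.0109 and 0.00354, and the call of PIWIL2 was lost without replicate 2 (adjusted p = 0.0861).

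Tudor domain genes ranged from 102 CPM for TDRKH in replicate 1 down to 7 counts for TDRD5 there. TDRKH (ENSCJAG00000007955), a mitochondrial Tudor protein that helps trim piRNA ends, was above 1 CPM at 102, 97.1 and 94.8 CPM (adjusted p = 5.43e-13, edgeR quasi-likelihood). Its libraries differed little, with replicate 1 1.08-fold higher than replicate 3 (adjusted p = 0.00124, exact conditional binomial test). TDRD1 (ENSCJAG00000019270), a scaffold of the granules where piRNAs are made, stood at 23.1, 24.5 and 11.3 CPM, and TDRD6, a component of the chromatoid body of spermatids, at 12.3, 11.7 and 7.92 CPM. TDRD7, which also has a role in the lens, stood at 5.56, 5.11 and 2.21 CPM. In all 3 genes, TDRD1, TDRD6 and TDRD7, the lowest library was replicate 3. By contrast TDRD5 had 7, 8 and 10 counts and TDRD9 12, 18 and 18, both below 1 CPM, and TDRD12 had 31, 18 and 40 and was not distinguished from it (adjusted p = 0.102). TDRD12 was below the level without replicate 3 (adjusted p = 0.000308).

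Among the remaining piRNA genes, STK31, a kinase-like Tudor protein of the germline, stood at 11.5, 11.5 and 16.7 CPM. HENMT1, the methyltransferase that protects the piRNA 3′ end, stood at 9.23, 9.42 and 7.50 CPM, and MAEL, a protein of the transposon-silencing pathway, at 3.59, 3.02 and 3.43 CPM. All 3 were above 1 CPM (adjusted p from 8.82e-09 for STK31 to 6.22e-06 for MAEL, edgeR quasi-likelihood). MOV10L1, the helicase that feeds precursor RNA into the pathway, had only 8, 8 and 7 counts (0.157 ± 0.0135 CPM, SD, n = 3). ASZ1, a mitochondrial scaffold, had 2, 12 and 0 counts, and GTSF1, a partner of PIWI proteins in silencing, 15, 30 and 24. These 3 were below the level, and the call of GTSF1 was lost without replicate 1 (adjusted p = 0.0966). The libraries thus held RNA of PIWIL1, TDRD1 and HENMT1 well above 1 CPM beside few reads of MOV10L1 and ASZ1.

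A second list of 11 piRNA genes had 7 in the files, of which 4 were above 1 CPM, 2 below and 1 not distinguished. PNLDC1, the nuclease that trims piRNA ends, stood at 13.3, 13.0 and 20.5 CPM, and MYBL1, a transcription factor that switches on piRNA genes in meiosis, at 16.1, 16.2 and 15.7 CPM. The chaperone HSP90AA1, which is not particular to the germline, had the largest values at 6156, 6295 and 8364 CPM. FKBP6, a co-chaperone of the pathway, had 0, 0 and 2 counts.

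Of the meiosis genes, 12 of 18 were above 1 CPM, 4 below and 2 not distinguished. SPO11 (ENSCJAG00000019147), the enzyme that makes meiotic DNA breaks, had 4172, 4271 and 3481 counts, or 79.7, 77.7 and 85.4 CPM. Its log2 level was 6.34 with a standard error of 0.03, and its span overlaps no other gene in RefSeq. DMC1, the recombinase that acts at those breaks, stood at 6.82, 7.00 and 7.09 CPM, the smallest relative spread of the genes in the set with at least 50 counts (coefficient of variation 1.93%). MEIOB, a single-stranded DNA binding protein of meiotic repair, stood at 10.2, 11.2 and 15.2 CPM. MSH5 and MSH4 form a heterodimer at crossover sites. MSH5 had 404, 374 and 516 counts and was above 1 CPM, and MSH4 had 16, 18 and 31 and was below it. MSH4 was no longer called without replicate 1 or without replicate 2 (edgeR quasi-likelihood, adjusted p = 0.0786 and 0.0697).

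Genes of the synaptonemal complex were split. SYCP1, the protein of its transverse filaments, had 409, 458 and 450 counts and stood at 7.82, 8.33 and 11.0 CPM. SYCE1 and SYCE2, proteins of the central element, had 42, 38 and 37 and 30, 20 and 37 counts, and were not distinguished from 1 CPM (adjusted p = 0.195 and 0.0685, edgeR quasi-likelihood). SYCE2 was below the level without replicate 3 (adjusted p = 0.000360). SYCP2, of the axial element, had 2, 10 and 14 counts, and its partner SYCP3 was not matched. The axis proteins HORMAD1 and HORMAD2, which monitor synapsis, had 0, 2 and 0 and 14, 10 and 6 counts. SYCP2 and HORMAD2 were below 1 CPM in the fit of 3 libraries and without each library in turn, and HORMAD1 in every fit that kept replicate 2.

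All 4 genes of meiotic cohesin subunits were above 1 CPM. REC8 (ENSCJAG00000007023), the meiotic kleisin, stood at 5.83, 5.95 and 11.4 CPM, highest in replicate 3. SMC1B stood at 2.26, 2.98 and 2.67 CPM, STAG3 at 1.95, 3.16 and 2.33 CPM and RAD21L1 at 1.72, 1.04 and 1.47 CPM. Their adjusted p-values were 9.87e-07, 5.92e-05, 0.000237 and 0.0479 in the order REC8, SMC1B, STAG3 and RAD21L1 (edgeR quasi-likelihood). The call of RAD21L1 was lost with the DESeq2 Wald test (adjusted p = 0.0812), with the filter of edgeR on low counts (0.0568), with counts halved (0.0565) and without replicate 1 (0.366). The genes IPO4 and GPC2 overlap REC8 and STAG3 in RefSeq. IPO4 stood at 85.5, 86.9 and 86.5 CPM and was not highest in replicate 3, as REC8 was. GPC2 stood at 5.52, 6.75 and 5.10 CPM, highest in replicate 2 as STAG3 was.

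The genes that control entry into meiosis were above 1 CPM. STRA8 (ENSCJAG00000012515), the retinoic acid responsive gene that starts the meiotic programme, had 155, 109 and 245 counts, or 2.96, 1.98 and 6.01 CPM. MEIOC stood at 2.85, 2.62 and 3.26 CPM and its partner YTHDC2, an RNA helicase that binds m6A and is made in many tissues, at 11.9, 12.8 and 9.17 CPM. Their adjusted p-values were 0.000304 for STRA8, 2.17e-05 for MEIOC and 9.26e-09 for YTHDC2 (edgeR quasi-likelihood). Replicate 3 held the highest value of STRA8 and the lowest of YTHDC2.

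Of 26 other meiosis genes in the files, from a list of 39, 17 were above 1 CPM, 6 below and 3 not distinguished. The largest mean CPM belonged to SGO2, SUN1 and BRCA2, which also act outside meiosis. Among genes used mainly in meiosis, HFM1, a helicase of crossover formation, stood at 18.2, 18.9 and 28.1 CPM, and TOP6BL, the partner subunit of SPO11, at 5.72, 6.69 and 7.01 CPM. PRDM9, which places meiotic breaks, had 0, 0 and 4 counts. TERB1, which ties telomeres to the nuclear envelope in meiosis, had 7, 2 and 2.

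Of the oocyte and late germ cell genes, 3 of 7 were above 1 CPM, 3 below and ZP2 had no counts. CCNA1, the germline A-type cyclin, stood at 13.4, 12.5 and 13.7 CPM, and CPEB1, which controls translation of stored oocyte mRNA, at 8.85, 8.80 and 8.02 CPM. Both were nearly equal in the libraries. SOHLH2 (ENSCJAG00000018188), a transcription factor of spermatogonia and young oocytes, stood at 9.65, 9.64 and 17.0 CPM. The oocyte transcription factors NOBOX and FIGLA had 2, 3 and 4 and 0, 2 and 0 counts. For the zona pellucida, the coat of the egg, ZP3 had 19, 18 and 28 counts and was below 1 CPM, a call that did not hold without replicate 1 or without replicate 2 (edgeR quasi-likelihood, adjusted p = 0.0584 and 0.0655). ZP2 had 0 counts in each library, which allows up to 0.0573, 0.0546 and 0.0736 CPM. The group median on the log2 CPM scale was −1.42, −1.57 and −0.52 in replicates 1, 2 and 3, under those of the early germ cell (0.83, 0.50 and 0.84), piRNA (1.28, 1.20 and 0.93) and meiosis genes (1.35, 1.49 and 1.57).

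**Figure D2:**
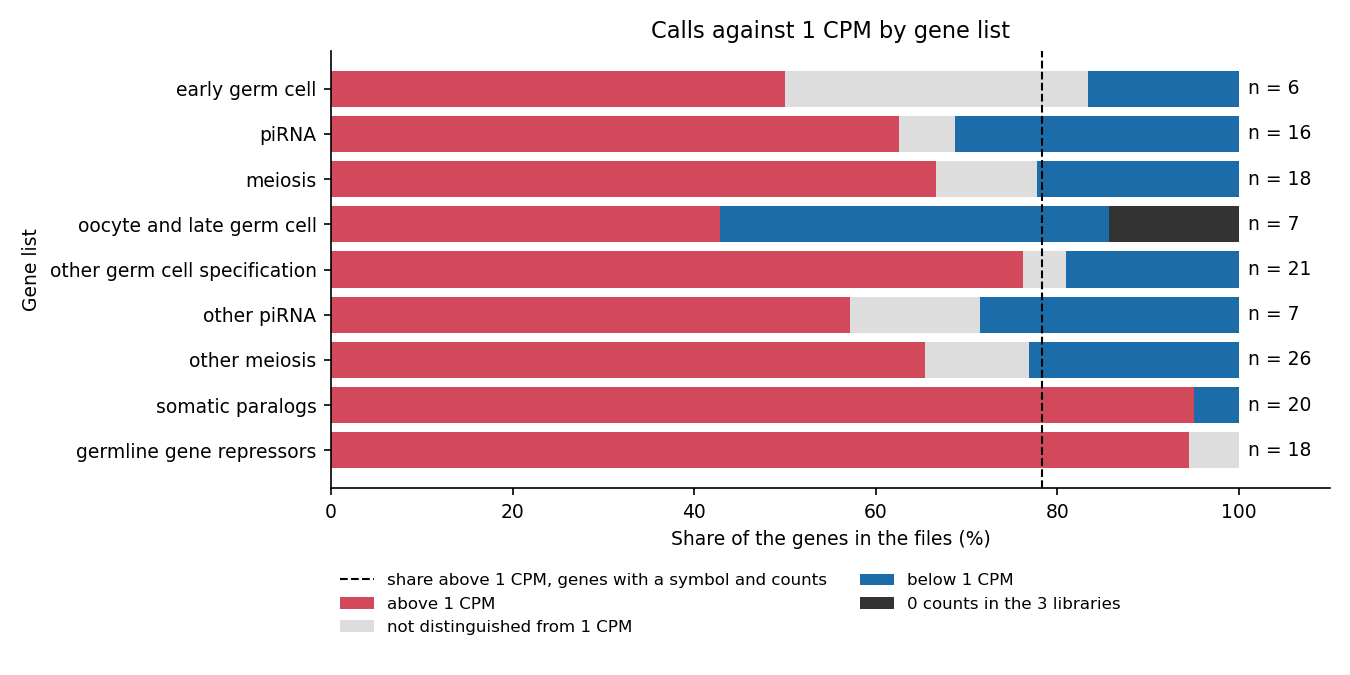
Share of the genes in the files (x axis, %) that were above 1 CPM, not distinguished from it, below it, or without counts, for 9 gene lists (y axis). The dashed line at 78.3% is the share above 1 CPM among genes with a symbol and counts. The 4 upper bars are the genes described here, and each ends its red part left of the line. The lists of somatic counterparts and of repressors reach 19 of 20 and 17 of 18.

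Somatic counterparts of these genes were measured with a list of 21, of which 20 were in the files, and 19 of them were above 1 CPM. The mitotic kleisin RAD21 stood at 330, 334 and 289 CPM, SMC1A at 211, 208 and 157 CPM and STAG2 at 188, 197 and 146 CPM. The mismatch repair gene MSH6 stood at 554, 548 and 465 CPM, and the mitotic cyclin CCNA2 at 138, 144 and 114 CPM. TOP2A, MSH6 and MOV10, the relative of MOV10L1, had the largest mean CPM of the list, and MOV10 stood at 442, 443 and 449 CPM. Since lengths are not given, these values stand beside those of the germline genes without a ratio. DDX3X, a relative of DDX4 and the exception of the list, had 6, 6 and 2 counts, and whether its ID holds the main gene model is not known, so this is not read as absence.

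Regulators known to repress germline genes in pluripotent or somatic cells were measured with a list of 23. Of the 18 in the files, 17 were above 1 CPM and YAF2 was not distinguished. DNMT3B, TRIM28 and HDAC2 had the largest mean CPM. Of the variant Polycomb complex PRC1.6, PCGF6 stood at 71.5, 76.4 and 72.8 CPM, MGA at 200, 206 and 158 CPM, L3MBTL2 at 58.2, 60.4 and 58.2 CPM and E2F6 at 29.8, 33.3 and 27.8 CPM. The maintenance methyltransferase DNMT1 stood at 24.5, 24.3 and 10.5 CPM, lower in replicate 3. Whether these levels bear on the germline genes was not tested.

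The relative spread over the libraries ranged widely. Over the 36 genes with at least 50 counts, the median coefficient of variation was 22.5%, beside 13.3% over the 10618 genes with a symbol and as many counts. Under 10% were 8 of the 36, or 22.2%, against 37.2%. These 8 were PIWIL2, PIWIL4, MAEL, TDRKH, SPO11, DMC1, CPEB1 and CCNA1. Genes of lower counts vary more by counting error alone, and the median level of the set was lower, so these figures are a description.

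Pairs of libraries were compared gene by gene with an exact conditional binomial test, two-sided and adjusted over all genes with counts, which compares those libraries and no conditions. Of the 46 genes, 5 differed between replicates 1 and 2 (TFAP2C, PIWIL1, RAD21L1, STAG3 and STRA8), beside 9.29% of genes with a symbol, and none of these 5 calls held with counts halved. Between replicates 1 and 3 it was 20, beside 62.1%, and between replicates 2 and 3 it was 25, beside 62.5%. In replicate 3, 8 genes were lower than in both other libraries, beside 34.5% of genes with a symbol, and 10 were higher than in both, beside 20.9%. With at least 1.5-fold required against both, 3 were lower and 5 higher, beside 12.6% and 3.09%. Genes with few counts cannot pass such a test easily. Among genes with a symbol and at least 50 counts over the libraries the shares were 39.2% lower and 23.5% higher. At 1.5-fold they were 14.1% and 3.12%. Of the 46 genes, 36 reach that depth, and these include all 18 counted here. The shares at that depth thus stand beside 8 lower and 10 higher of 36, and at 1.5-fold 3 and 5 of 36. With halved counts, which stand for read pairs counted as 2, 6 were lower and 8 higher.

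**Figure D3:**
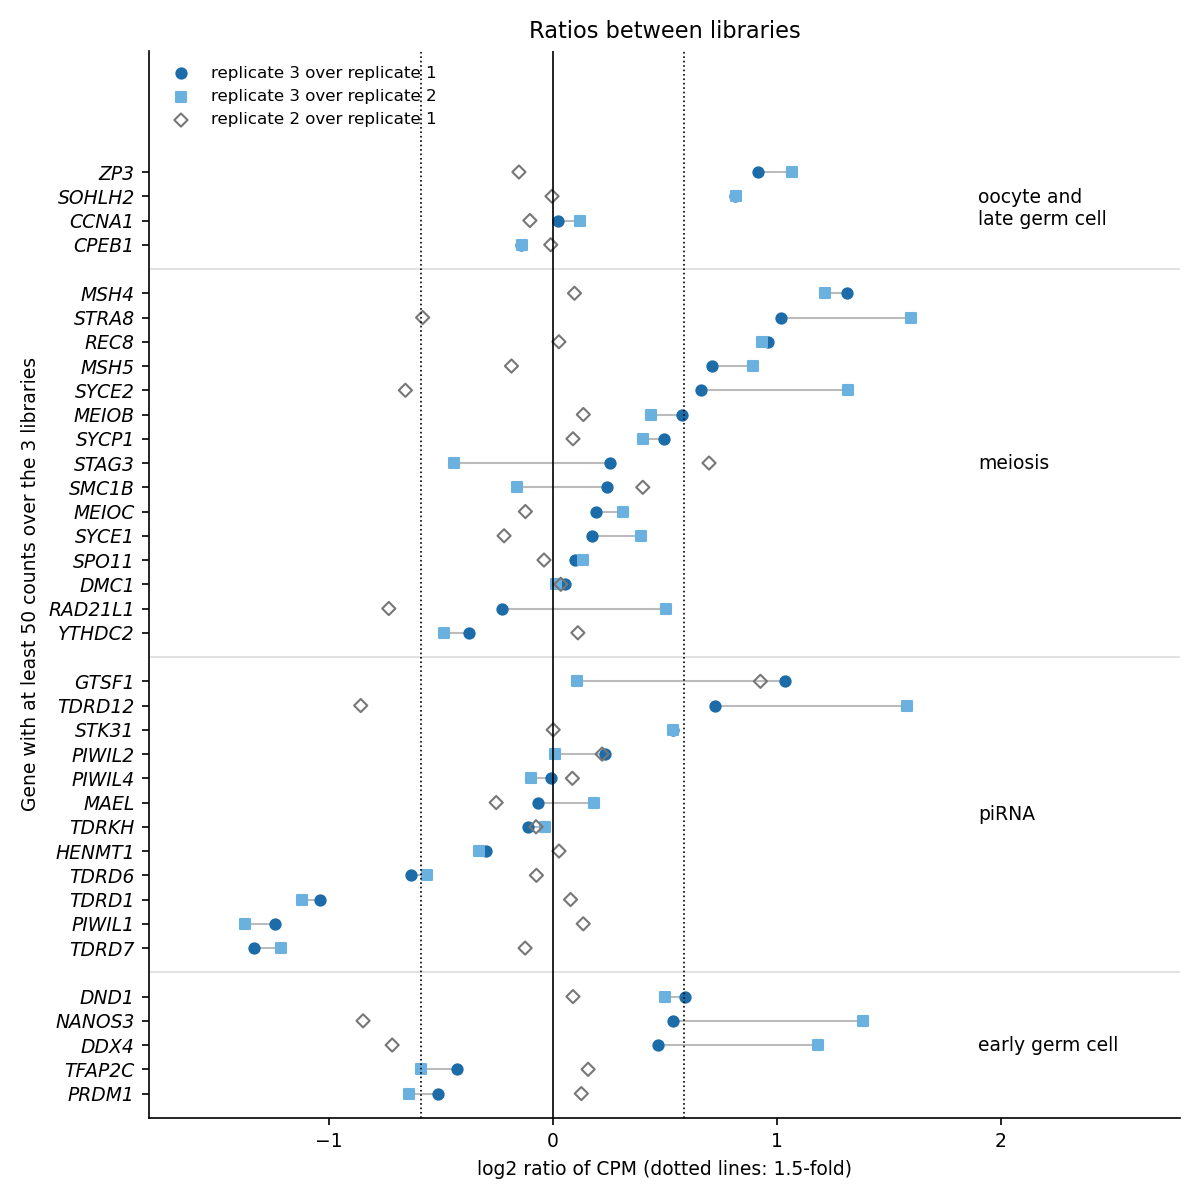
Log2 ratio of CPM between libraries (x axis) for the 36 genes with at least 50 counts (y axis), by group. Filled points are replicate 3 over replicate 1 (circles) and over replicate 2 (squares), open diamonds are replicate 2 over replicate 1, and dotted lines mark 1.5-fold. PIWIL1, TDRD1 and TDRD7 lie left of the lines in both ratios, and MSH4, STRA8, REC8, MSH5 and SOHLH2 right of them. ZP3, SYCE2 and TDRD12 also lie right of them but did not pass the exact test in both pairs.

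The 3 genes lower in replicate 3 by at least 1.5-fold were all of the piRNA group. PIWIL1 was 2.36-fold higher in replicate 1 than in replicate 3, with a 95% interval of 2.21 to 2.51, and 2.59-fold higher in replicate 2 (adjusted p = 5.09e-172 and 3.34e-226, exact conditional binomial test). TDRD1 was 2.05-fold and 2.17-fold higher in replicates 1 and 2 (adjusted p = 1.24e-41 and 1.74e-50, same exact test). TDRD7 was 2.52-fold higher in replicate 1, with an interval of 1.98 to 3.23, and 2.32-fold higher in replicate 2 (adjusted p = 1.94e-15 and 1.23e-12, same exact test). TDRD6, HENMT1, TFAP2C, PRDM1 and YTHDC2 were lower in replicate 3 than in both others by a smaller factor in at least 1 ratio. The gene RIMBP2 overlaps PIWIL1 in RefSeq and stood at 30.2, 27.7 and 20.9 CPM, also lowest in replicate 3. With counts halved, PRDM1 and HENMT1 no longer passed. STK31 was higher in replicate 3 than in both others, at 1.45-fold over each.

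Of the 5 genes higher in replicate 3 by at least 1.5-fold, 4 were meiosis genes and the fifth was SOHLH2. STRA8 was 2.03-fold higher than in replicate 1, with a 95% interval of 1.65 to 2.496, and 3.03-fold higher than in replicate 2 (adjusted p = 1.64e-11 and 5.44e-23, exact conditional binomial test). It also differed between replicates 1 and 2 (adjusted p = 0.0256, same exact test), a call lost with counts halved. REC8 was 1.95-fold and 1.91-fold higher (adjusted p = 4.76e-19 and 1.15e-18, same exact test) and MSH5 1.64-fold and 1.86-fold higher (5.48e-13 and 2.76e-19). SOHLH2 was 1.76-fold higher than in either library (1.84e-21 and 4.57e-22, same exact test). MSH4 was 2.49-fold higher than in replicate 1, but with 16 and 31 counts its interval ran from 1.32 to 4.87, and it no longer passed with counts halved. DND1, STK31, SYCP1, MEIOB and SPO11 were higher by smaller factors, and SPO11, at 1.07-fold and 1.10-fold, was lost with counts halved.

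The counts of lower and higher genes in replicate 3 were also taken by group and in the further lists of the same pathways. In the piRNA group 5 of 16 genes were lower and 1 higher in replicate 3 than in both others, and the summed level was 245, 248 and 181 CPM in replicates 1, 2 and 3. In the meiosis group 1 of 18 was lower, YTHDC2, and 7 were higher, and the sum was 144, 143 and 171 CPM. In the early germ cell group 2 of 6 were lower and 1 higher. In the oocyte and late germ cell group 0 of 7 were lower and 1 was higher. Genes with a symbol were lower in 34.5% and higher in 20.9%. With at least 50 counts these shares were 39.2% and 23.5%. That depth was reached by 5 early germ cell, 12 piRNA, 15 meiosis and 4 oocyte and late germ cell genes. In the further list of germ cell specification 10 of 21 were lower and 6 higher. Of these, 8 were lower by at least 1.5-fold and 0 higher, beside 12.6% and 3.09% of genes with a symbol. In the second piRNA list the 2 of 7 genes that differed from both other libraries by the exact conditional binomial test, PNLDC1 and HSP90AA1, were higher, and in the second meiosis list 8 of 26 were lower and 3 higher. The difference between the groups was not tested, and the piRNA sum includes 73.3, 80.6 and 31.1 CPM of PIWIL1. The meiosis sum includes 79.7, 77.7 and 85.4 CPM of SPO11. The median log2 ratio of replicate 3 over replicate 1 was −0.04 over the piRNA genes and 0.25 over the meiosis genes, beside −0.09 over genes with a symbol. Over replicate 2 it was −0.01 and 0.40, beside −0.09. The median of the piRNA genes therefore does not show the lower values of PIWIL1, TDRD1 and TDRD7. Dividing by library totals in place of TMM left 8 genes lower and 10 higher.

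Markers of other cell types moved between the same libraries. In the endoderm list, 4 of 7 genes were lower in replicate 3 than in both others by at least 1.5-fold, and its summed level was 18.5, 18.5 and 7.41 CPM, with GATA6 at 7.32, 8.06 and 0.490 CPM and AFP at 0 counts. In the trophoblast and amnion list 5 of 8 genes were lower than in both, 4 of them by at least 1.5-fold, with sums of 61.4, 62.6 and 38.1 CPM. TFAP2A of that list stood at 12.3, 12.1 and 2.45 CPM, CDX2 had 25, 29 and 0 counts and CYP19A1 had none. In the fibroblast list 5 of 6 genes were lower than in both, 2 of them by at least 1.5-fold, with sums of 706, 661 and 513 CPM, and DCN stood at 9.25, 9.71 and 0.981 CPM. In the mesoderm list 2 of 7 were lower than in both and 1 higher, with sums from 45.4 to 51.7 CPM. In the neural list 2 of 5 were lower and 1 higher, with sums from 427 to 461 CPM. In the trophoblast and amnion list 1 gene, KRT7, was higher. These counts stand beside 34.5% lower and 20.9% higher over genes with a symbol, and those at 1.5-fold beside 12.6% lower. In these lists 5 of 8 trophoblast and amnion, 3 of 7 endoderm and 6 of 6 fibroblast genes were above 1 CPM. So were 5 of 7 mesoderm and 4 of 5 neural genes, beside 78.3% of genes with a symbol and counts. Of the germ cell, piRNA and meiosis genes, 8 were lower in replicate 3 than in both others and 10 were higher. The part of cells of other types in their values was not tested.

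Of 8 markers of the somatic cells of the gonad in the files, GATA4, which endoderm also expresses, was the only 1 above 1 CPM. Their summed level was 7.26, 8.22 and 7.16 CPM in replicates 1, 2 and 3. FSHR, the follicle stimulating hormone receptor of granulosa and Sertoli cells, had no counts, and CYP17A1, a steroid enzyme, had 0, 2 and 0. AMH and NR5A1 were below 1 CPM, and WT1 and STAR were not distinguished from it.

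**Figure D4:**
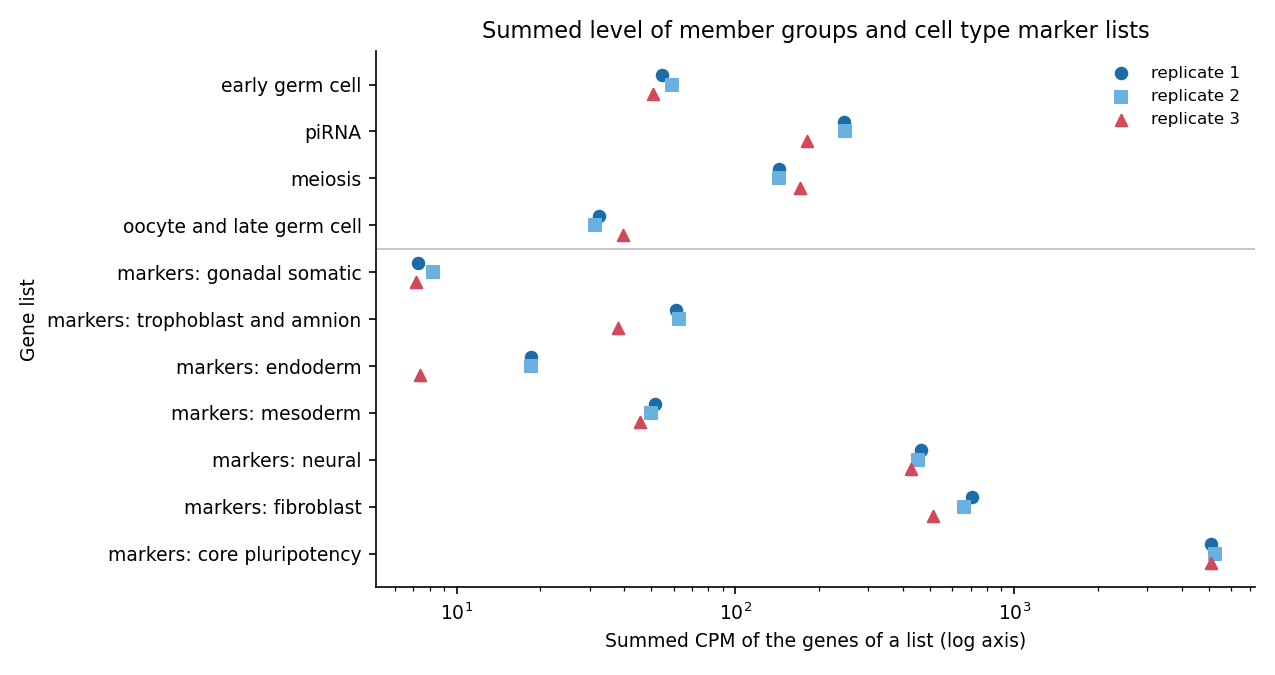
Summed CPM (x axis, log scale) of the genes of each list (y axis) in the 3 libraries, for the 4 groups described here above the line and for 7 lists of cell type markers under it. Replicate 3 (triangles) has the smallest sum of the piRNA genes, at 181 CPM, and of the endoderm markers, at 7.41 CPM, and the largest sum of the meiosis genes, at 171 CPM.

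Several of these genes share their place in the genome with others. In RefSeq's marmoset assembly calJac240, which is not known to be the build counted here, 27 of the 47 spans overlap another gene and 18 overlap a protein-coding gene. SYCE2 overlaps GCDH, which stood at 62.2, 59.1 and 64.6 CPM, and ZP3 overlaps SSC4D, at 50.2, 45.6 and 73.4 CPM. PRDM1 overlaps ATG5, at 38.7, 40.2 and 36.9 CPM, and BOLL overlaps MARS2, at 6.56, 7.18 and 5.44 CPM. MSH5 overlaps VWA7, at 0.956, 1.18 and 0.760 CPM. Levels of SYCE2, ZP3, PRDM1 and BOLL, and likewise of DND1, PIWIL1, REC8, STAG3 and MSH5, are therefore uncertain where the counting did not use strand. The same holds for TDRD5, TDRD6, TDRD9, GTSF1, MSH4, MEIOC, YTHDC2, CPEB1 and CCNA1, which also overlap a protein-coding gene. ASB17, the protein-coding gene that overlaps MSH4, had 0 counts in each library. SOHLH2 overlaps a transcribed pseudogene. TDRKH, TDRD1, SPO11, DMC1, MEIOB and STRA8 overlap no other gene there.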

How the data were processed

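Total RNA of 3 libraries was sequenced. The submitters' processing notes name featureCounts 1.5.2, STAR 2.5.3a and Trim Galore 0.4.0 as tools of the authors. No source used here states the build, annotation, strand setting or treatment of multi-mapping reads. Each deposited table holds raw counts of 1 library by Ensembl ID, with no normalization. Among genes with 1 to 10 counts, 57.1% to 59% of the counts were even, so some read pairs may have been counted as 2.

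Symbols came from a name table that matched 12660 of 30811 IDs. RefSeq (calJac240) was used only to see which genes overlap. Members and lists were chosen with earlier results of these data known. Named genes were every member, and from each other list the 3 of largest mean CPM and the somatic counterparts, some of which are not reported here. Further genes named from the lists (PRDM14, spermatogonial genes, PNLDC1, MYBL1, FKBP6, HFM1, TOP6BL, PRDM9, TERB1, repressors and markers) were chosen after their values were seen.

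Counts were scaled with TMM factors (edgeR 4.0.16, R 4.3.3). The F statistic of an intercept-only quasi-likelihood fit against 1 CPM was computed from deviances, with trended dispersion, no p smaller than that of a Poisson test, and 4.68 prior degrees of freedom. Adjusted p under 0.05 (Benjamini-Hochberg over 23432 genes) was called. Library pairs were compared by an exact conditional binomial test. Intervals of ratios are exact (Clopper-Pearson, 95%). The scripts were tested on simulated data. Alternatives were DESeq2 1.42.0, other scalings, levels, filters and prior counts, halved counts, each library left out, and replicates 1 and 2 summed. Lists of cell type markers were gonadal somatic, trophoblast and amnion, endoderm, mesoderm, neural, fibroblast and core pluripotency. Figures were drawn with matplotlib 3.10.9.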

Additional observations from a re-analysis of the deposited data

How the results depend on the processing

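The count of 28 genes above 1 CPM ranged from 24 at 2 CPM to 31 at 0.5 CPM, and from 27 to 28 with 1 library left out. The count of 13 below was 4 with the filter of edgeR, which leaves fewer genes to test, 8 at 0.5 CPM, and 9 to 15 with 1 library left out. Early germ cell genes above the level were 5 at 0.5 CPM. In genes with at least 10 counts, the median log2 CPM was 1.60 in the meiosis and 3.27 in the oocyte and late germ cell group, where low genes are left out by construction. With at least 1.5-fold required, genes that differed numbered 2 (replicates 1 and 2), 11 (1 and 3) and 16 (2 and 3). With counts halved, 0 differed between replicates 1 and 2 by the exact conditional binomial test, and 5 had an unadjusted p under 0.05. The log2 level lay on the other side of the reference level for NANOS3 at 2 CPM (0.012), with counts halved (−0.00082), and from −0.35 to 0.31 with 1 library left out. For DDX4 it did at 0.5 CPM (−0.078), with replicates 1 and 2 summed (0.044), and from −0.39 to 0.19 with 1 library left out. It did so at 2 CPM for PIWIL2, PIWIL4 and RAD21L1 (0.59, 0.73 and 0.49) and at 0.5 CPM for TDRD12, SYCE1 and SYCE2 (−0.68, −0.32 and −0.72). Of 46 genes, 37 kept their side and call in every alternative at 1 CPM that gave a value. Summing replicates 1 and 2 was chosen after seeing the data, and calls of PIWIL2 and RAD21L1 were lost with it (adjusted p = 0.0518 and 0.12, edgeR quasi-likelihood). Fits on 2 libraries had infinite prior degrees of freedom and ignore a gene's own spread. No paired analysis was possible because all libraries belong to 1 group. Levels per coding length were not run, as no lengths were at hand.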

Other observations

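Some genes had counts mostly in 1 library, and others were lower in replicate 3. ASZ1 had 2, 12 and 0 counts in replicates 1, 2 and 3, and MAJIN, which ties meiotic telomeres to the nuclear envelope, had 0, 17 and 4. GFRA1, a receptor of spermatogonial stem cells, had 62, 58 and 6 counts and was at 1.19, 1.05 and 0.147 CPM. RNF212B, a factor of meiotic crossovers, stood at 1.15, 1.45 and 0.638 CPM, and ANKRD31, which takes part in placing meiotic breaks, at 6.15, 6.82 and 3.97 CPM. GFRA1, RNF212B and ANKRD31 were lower in replicate 3 than in both others by at least 1.5-fold (exact conditional binomial test), unlike STRA8, REC8 and MSH5.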
